A study of Mus musculus with 9 samples.

Results

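Integrins are surface receptors built from 1 α and 1 β subunit, and the transcripts of 10 of their subunit genes were followed here in mouse thymocytes with and without a targeted deletion of the splicing factor gene Srsf1. The genes are Itgb7, Itga4, Itgae, Itgal, Itgb2, Itgb1, Itga6, Itgb3, Itgav and Itga5. They were chosen by name, as integrin subunits of thymocytes, from the 53715 rows of the count table, and each matched 1 row. The cells were sorted as TCRβ+CD69+CD24+CD4+CD8+, and bulk Smart-seq2 RNA-seq libraries were made from 3 WT and 2 SRSF1KO samples. All donors were C57BL/6 mice of 6 to 8 weeks. The SRSF1KO genotype is given as Srsf1fl/flLckcre/+, a floxed Srsf1 gene cut by a Cre recombinase under the Lck promoter, which is active in T lineage cells. The WT samples are labelled WT only, so whether they carried floxed alleles or the Cre is not given in the sources used here. The 4 CLIP-seq samples of the series, from total thymocytes, were not analysed here.

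An integrin reaches the cell surface as a pair, so the subunits share and compete for partners. The α4 chain (Itga4) pairs with β7 (Itgb7) into the gut-homing receptor for MAdCAM-1, or with β1 (Itgb1) into VLA-4, the receptor for VCAM-1 and fibronectin. The αE chain (Itgae, CD103) pairs only with β7 and binds E-cadherin on epithelium. The αL chain (Itgal) pairs with β2 (Itgb2) into LFA-1, the receptor for ICAMs, which thymocytes use in contacts with antigen-presenting cells. The α5 and α6 chains pair with β1 and bind fibronectin and laminin, and αv (Itgav) pairs with β3 (Itgb3) and other β chains and binds vitronectin.

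The promoter windows of Itgb7, Itga4 and Itgb1 are shown because these 3 genes make up the 2 α4 integrins, and their transcripts are followed most closely. RefSeq sequences of GRCm38.p6 were held for 5 of the 10 genes, and the 250 bases before the start site are given on the strand of the gene, Itgb7 at chr15:102231936-102232185 (minus strand), Itga4 at chr2:79255176-79255425 (plus strand) and Itgb1 at chr8:128685404-128685653 (plus strand). Capitals mark the Runx core TGTGGT and the CACCC box, a core of Krüppel-like factor motifs, searched on both strands (ACCACA and GGGTG on the other strand).
Itgb7: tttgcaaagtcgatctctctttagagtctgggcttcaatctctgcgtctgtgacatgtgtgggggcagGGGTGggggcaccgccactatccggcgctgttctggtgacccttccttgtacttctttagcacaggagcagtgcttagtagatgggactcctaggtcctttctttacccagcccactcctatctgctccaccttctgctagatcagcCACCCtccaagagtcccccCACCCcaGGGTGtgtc
Itga4: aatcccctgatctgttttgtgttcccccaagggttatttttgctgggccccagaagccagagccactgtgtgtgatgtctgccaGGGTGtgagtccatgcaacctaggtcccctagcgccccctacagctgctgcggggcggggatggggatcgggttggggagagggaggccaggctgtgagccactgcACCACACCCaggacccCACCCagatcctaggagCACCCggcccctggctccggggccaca
Itgb1: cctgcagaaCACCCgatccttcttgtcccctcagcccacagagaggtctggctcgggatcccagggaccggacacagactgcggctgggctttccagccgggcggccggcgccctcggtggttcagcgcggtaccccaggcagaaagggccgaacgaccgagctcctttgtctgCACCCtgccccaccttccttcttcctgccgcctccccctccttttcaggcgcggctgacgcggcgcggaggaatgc
The windows of Itgb7 and Itga4 each held 4 CACCC boxes, a number reached by 2.14% of the 32851 windows in the table, and that of Itgb1 held 2, reached by 21.1%. Itga4 held 1 Runx core, which overlaps the CACCC match beside it, and 14% of all windows held at least 1. The Itgb7 and Itgb1 windows held none of these Runx letters. The RefSeq span of Itgb7 reaches 1470 bases beyond the start site used, so its window lies inside the annotated gene. These matches are letters only, and no binding was measured.

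The libraries held 36026006 to 38985285 counts, and the 10 genes held between 491 and 35321 counts in each library. Levels are CPM, counts brought to 1 depth by TMM scaling, and are not divided by transcript length, so they are compared between samples and not between genes. The targeted gene, Srsf1, was at 96.9 to 122.7 CPM over the WT libraries and at 42.6 and 30.9 CPM in the libraries labelled SRSF1KO, which lay below all of WT. Surface-gate transcripts were abundant, with the 9 gate and T lineage genes summing to 10193 to 11032 CPM in WT and 10102 to 11802 CPM in SRSF1KO. Under that sum, Cd4 was higher in SRSF1KO (1228 and 1117 CPM) than in WT (766 to 932 CPM). Trac was lower, at 999.7 and 1006 CPM against 1173 to 1189.5 CPM. The groups overlapped for the rest of these genes, Cd69 and Cd24a among them. In a bulk library, fewer cells of a type and less RNA per cell cannot be told apart. The labels do not say whether replicates came from separate animals, and p-values measure the spread between these 5 samples only. A library was put in a male pattern where the Y-linked gene Ddx3y held more counts than Xist, and in a female one otherwise. The male-pattern libraries were WT replicate 2 (Ddx3y 5803, Xist 1369 counts) and SRSF1KO replicate 1 (5699 and 282). The others held 23 to 141 Ddx3y and 14784 to 21400 Xist counts. Every library thus held counts of both genes, and the pattern is that of the larger.

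The β7 chain and its αE partner stood well below WT in SRSF1KO, whereas the α4, β1 and α5 chains lay slightly above WT. Differences were tested with edgeR's quasi-likelihood test over 17351 genes, and a gene was called where the Benjamini-Hochberg adjusted p was under 0.05. Of the 10 integrin genes 1 was called lower, Itgb7, and 0 higher, against 0.213% and 0.0519% of all genes tested. At an unadjusted p under 0.05, 2 were lower and 0 higher (8.45% and 5.9% of all genes). DESeq2 called 2 lower and 0 higher (3.87% and 2.34% of the genes to which it gave an adjusted p), and limma-voom likewise 2 lower and 0 higher (0.409% and 0.133% of all genes), in each case Itgb7 and Itgae. The SRSF1KO libraries lay below all WT libraries for 5 of the 10 genes and above them for 3, against 20.7% and 16.4% of the 9932 genes that averaged 5 CPM or more. The median log2 fold change of the 10 was −0.24, against −0.01 for all genes tested.

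**Figure D1:**
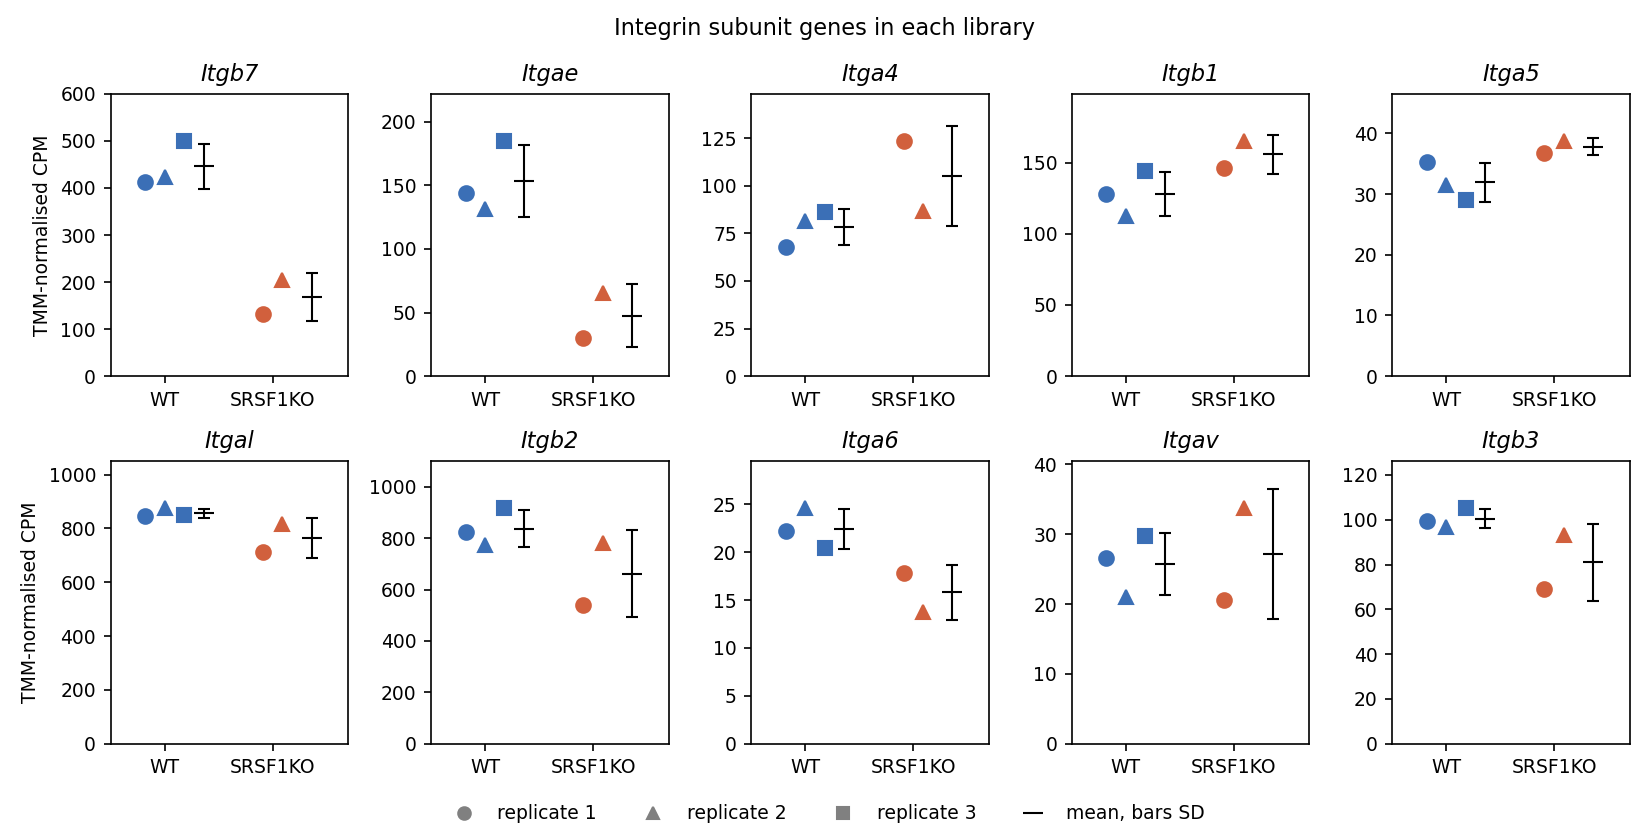
TMM-normalised CPM (vertical axis, from 0) of the 10 integrin subunit genes in each of the 3 WT (blue) and 2 SRSF1KO (orange) libraries, with the group mean and SD beside the points. Itgb7 and Itgae show a wide gap between the groups, while Itgb2 and Itgav overlap.

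Itgb7 (ENSMUSG00000001281.10, chromosome 15, 102215994 to 102233405) encodes the β7 chain. In the WT libraries, always given in the order of their replicate numbers, its level was 413.7, 423.3 and 500.7 CPM, and in the SRSF1KO libraries it was 131.6 and 203.8 CPM. Both SRSF1KO libraries lay far below the lowest WT library. The gene fell to 37.6% of its WT mean, with a log2 fold change of −1.41 ± 0.19 (SE; unadjusted 95% interval −1.86 to −0.96; edgeR, adjusted p = 0.0483). Its adjusted p rose to between 0.0931 and 0.220 when WT replicate 1, 2 or 3 or SRSF1KO replicate 1 was left out (log2 fold change −1.45 to −1.13), and it was 0.0154 without SRSF1KO replicate 2 (−1.74). Scaling by DESeq2's size factors gave −1.39 (adjusted p = 0.0515), a term for the sex pattern −1.39 (adjusted p = 0.0861) and a replicate block −1.35 (adjusted p = 0.314), none of which passed. Itgb7 did pass with DESeq2 (−1.39, adjusted p = 2.0e-11) and with limma-voom (−1.44, adjusted p = 0.0170). In edgeR it also passed at a minimum mean of 5 CPM (adjusted p = 0.0018) and with no expression filter (adjusted p = 2.5e-05). With upper-quartile scaling it passed narrowly (adjusted p = 0.0496).

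Itgae (ENSMUSG00000005947.11, chromosome 11, 73090505 to 73147449) encodes the αE chain, which has no other β partner. It stood at 143.8, 131.6 and 185.1 CPM in WT and at 29.9 and 65.2 CPM in SRSF1KO. The groups did not overlap, and SRSF1KO replicate 1 was the lower of the SRSF1KO libraries, as for Itgb7. Its log2 fold change was −1.69 ± 0.32 (SE; 95% interval −2.45 to −0.93) and did not pass in edgeR (adjusted p = 0.0971). Itgae did pass with DESeq2 (−1.67, adjusted p = 4.2e-07), with limma-voom (−1.79, adjusted p = 0.0486), at a minimum mean of 5 CPM (adjusted p = 0.0401) and without SRSF1KO replicate 2 (−2.34, adjusted p = 0.0183). Without SRSF1KO replicate 1 its log2 fold change was −1.23 (adjusted p = 0.143). The gene Haspin lies within the span of Itgae (73135484 to 73138294), and reads of the 2 genes may be shared where the counting ignores strand. Haspin averaged 17.6 CPM over WT and 14.5 CPM over SRSF1KO libraries, at −0.28 on the log2 scale (adjusted p = 0.744).

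The differences of Itgb7 and Itgae had the same sign within each sex pattern. Between the male-pattern libraries, 1 of each group, the log2 difference was −1.69 for Itgb7 and −2.14 for Itgae. Between the female-pattern libraries, 1 SRSF1KO and 2 WT, it was −1.16 and −1.32. The male-pattern difference was the larger for both genes, which with 1 SRSF1KO library in each pattern was not tested.

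Itga4 (ENSMUSG00000027009.18, chromosome 2, 79255426 to 79333114), the α chain shared by the β7 and β1 integrins, stood at 67.6, 81.3 and 86.2 CPM in WT and at 123.7 and 86.6 CPM in SRSF1KO. SRSF1KO replicate 1 was clearly the highest, while SRSF1KO replicate 2 was level with WT replicate 3. The log2 fold change was 0.42 ± 0.18 (SE; 95% interval −0.0004 to 0.85; adjusted p = 0.349). It was 0.15 without SRSF1KO replicate 1 and 0.68 without SRSF1KO replicate 2. Cerkl, which overlaps the end of Itga4, was low in both groups (2.62 and 1.52 CPM).

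Itgb1 (ENSMUSG00000025809.15, chromosome 8, 128685654 to 128733579), the common β chain of the matrix-binding integrins, stood at 128.0, 112.7 and 143.8 CPM in WT and at 146.1 and 165.4 CPM in SRSF1KO. The SRSF1KO libraries lay above WT by a margin that was small for replicate 1. The log2 fold change was 0.28 ± 0.13 (SE; 95% interval −0.03 to 0.59; adjusted p = 0.388). Its partner Itga5 (chromosome 15, 103344286 to 103366791), the fibronectin-binding α5 chain, stood at 35.3, 31.5 and 29.0 CPM in WT and at 36.8 and 38.8 CPM in SRSF1KO, at a log2 fold change of 0.24 ± 0.17 (adjusted p = 0.589). Its SRSF1KO libraries too lay just above the highest WT library. The laminin-binding α6 chain, Itga6 (chromosome 2, 71786886 to 71858427), differed in the other direction, with 22.3, 24.6 and 20.4 CPM in WT and 17.9 and 13.7 CPM in SRSF1KO. Both SRSF1KO values lay below WT, at −0.51 ± 0.23 (95% interval −1.04 to 0.03; adjusted p = 0.372).

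The LFA-1 chains differed less. Itgal (chromosome 7, 127296139 to 127335137), the αL chain, stood at 844.4, 875.5 and 848.4 CPM in WT and at 712.4 and 815.9 CPM in SRSF1KO. The WT libraries were close together, and SRSF1KO replicate 2 lay a little below them and replicate 1 further below. The log2 fold change was −0.16 ± 0.09 (95% interval −0.38 to 0.05; adjusted p = 0.474). Itgb2 (chromosome 10, 77530329 to 77565708), the β2 chain, stood at 823.0, 772.3 and 917.1 CPM in WT and at 541.8 and 781.5 CPM in SRSF1KO. Its groups overlapped, since SRSF1KO replicate 2 lay above WT replicate 2, and the log2 fold change was −0.34 ± 0.16 (95% interval −0.71 to 0.03; adjusted p = 0.389).

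The vitronectin receptor chains gave no call either. Itgb3 (chromosome 11, 104608000 to 104670476), the β3 chain, is best known from platelets and stood at 99.5, 96.8 and 105.2 CPM in WT and at 68.9 and 93.3 CPM in SRSF1KO. SRSF1KO replicate 2 was just under the WT libraries and replicate 1 well under them (−0.31 ± 0.15, 95% interval −0.66 to 0.04, adjusted p = 0.407). Platelet markers were near 0: the 6 markers summed to 0.0779 to 4.38 CPM in WT and 0.447 to 0.693 CPM in SRSF1KO, with Gp6 at 0 counts in all 5 libraries. Itgav (chromosome 2, 83722303 to 83806917), the αv chain, stood at 26.6, 21.0 and 29.8 CPM in WT and at 20.6 and 33.7 CPM in SRSF1KO, which held both the lowest and the highest value. Its log2 fold change of 0.08 ± 0.27 (95% interval −0.56 to 0.71; adjusted p = 0.949) had an interval wide enough to hold a change of either sign, and the sign turned without WT replicate 2 (−0.05) or SRSF1KO replicate 2 (−0.30).

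**Figure D2:**
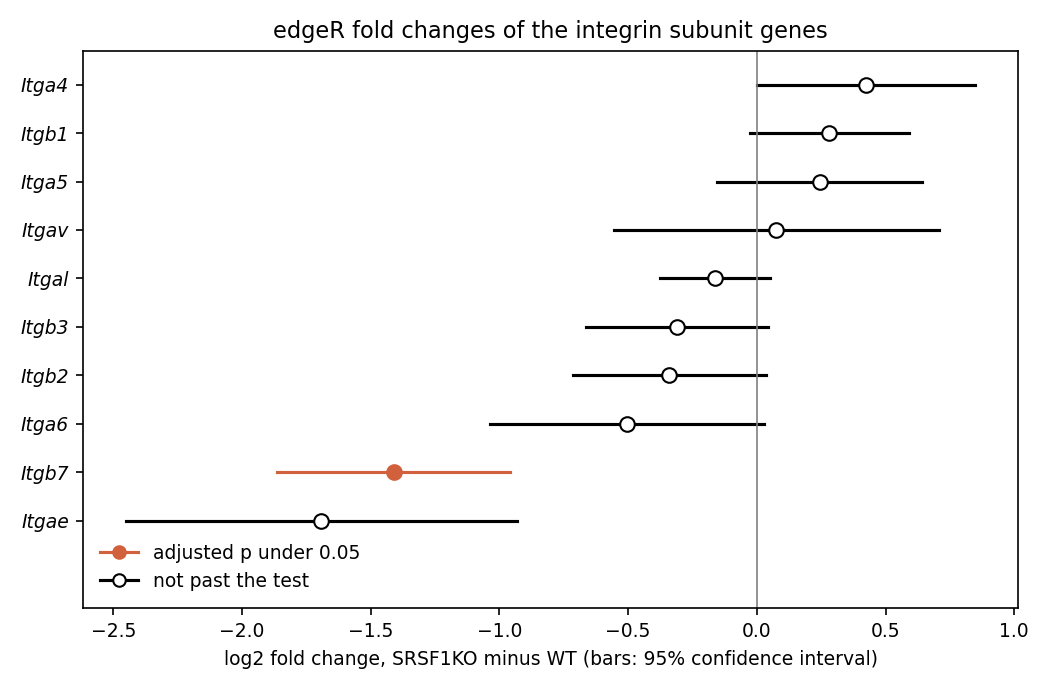
Log2 fold change of each integrin subunit gene, SRSF1KO minus WT (horizontal axis), with its unadjusted 95% confidence interval from edgeR, ordered by value. Itgb7, in orange, is the gene past the adjusted threshold, and Itgae, at −1.69, has the wider interval of the 2 genes furthest from 0.

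The balance between subunits that compete for a partner can be read within a library as a ratio of counts, which does not depend on scaling between libraries. The log2 ratio of Itgb7 to Itgb1, the 2 β chains that pair with α4, was 1.69, 1.91 and 1.80 in WT and −0.15 and 0.30 in SRSF1KO. The count of Itgb7 was 3.23 to 3.76 times that of Itgb1 in each WT library and 0.901 and 1.23 times in the SRSF1KO libraries. The mean log2 ratio was 1.80 ± 0.11 (SD, n = 3) in WT and 0.08 ± 0.32 (SD, n = 2) in SRSF1KO, a difference of −1.73, with no overlap (exact 2-sided permutation test, p = 0.1, the smallest that 3 against 2 libraries allow). Since lengths were not corrected for, these ratios do not give the ratio of transcripts.

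For the 2 α chains that pair with β7, the log2 ratio of Itgae to Itga4 was 1.09, 0.69 and 1.10 in WT and −2.05 and −0.41 in SRSF1KO. All WT libraries held more Itgae than Itga4 counts and both SRSF1KO libraries held fewer. The difference was −2.19 (exact 2-sided permutation test, p = 0.1), −1.37 without SRSF1KO replicate 1 and −3.01 without SRSF1KO replicate 2. The 2 chains of LFA-1 showed no such shift, with a log2 ratio of Itgal to Itgb2 of 0.04, 0.18 and −0.11 in WT and 0.39 and 0.06 in SRSF1KO (difference 0.19, exact 2-sided permutation test, p = 0.4). The groups overlapped for this pair.

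**Figure D3:**
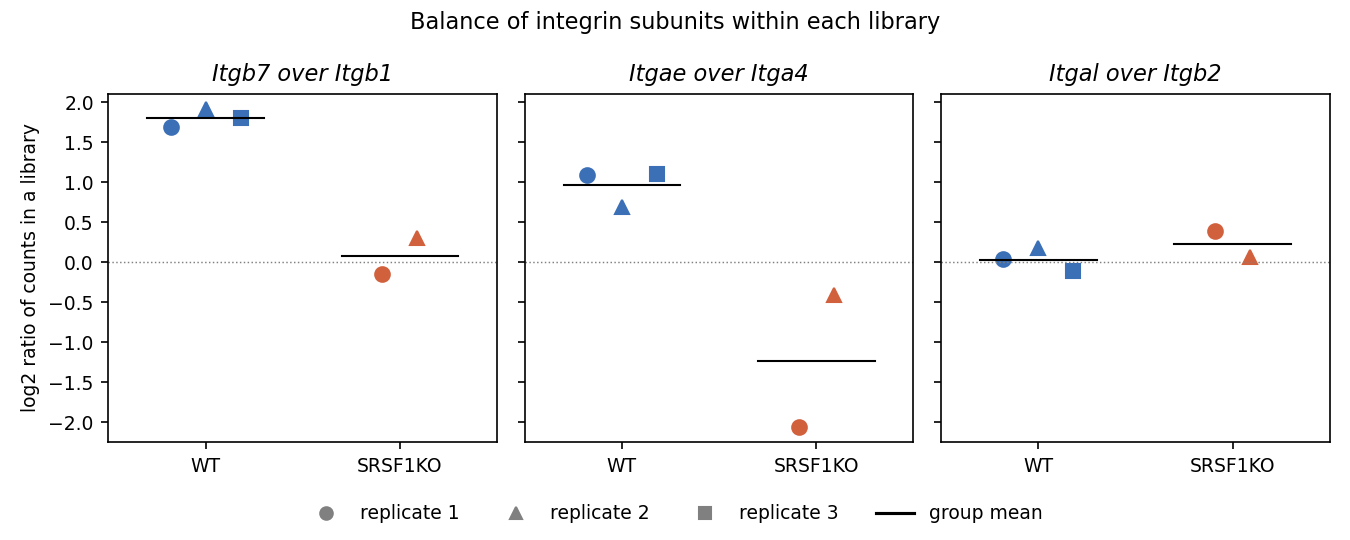
Log2 ratio of counts of 2 integrin subunit genes within each library (vertical axis), for the 3 WT (blue) and 2 SRSF1KO (orange) libraries, with a line at each group mean. The ratios of Itgb7 to Itgb1 and of Itgae to Itga4 are lower in both SRSF1KO libraries than in every WT library, whereas those of Itgal to Itgb2 overlap.

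The genes whose pattern over the 5 libraries was most like that of Itgb7 were Ctsw, Oas3, Ctss, Klhdc1 and H2-K1. Likeness was the root mean square difference in log2 CPM, each gene centred on its own mean, among 9188 named genes that averaged 5 CPM or more. It was 0.057 for Ctsw, a cathepsin of cytotoxic lymphocytes, and 0.089 for H2-K1, a classical MHC class I gene. Ctsw stood at 319.9, 296.1 and 353.9 CPM in WT and at 98.5 and 143.8 CPM in SRSF1KO, low in the same library as Itgb7. Itgae was at rank 62 (0.244), with Itgb7 itself not counted, and the next of the 10 integrin genes was Itgb2 (0.532, rank 851). This is a description over 5 libraries that share the contrast.

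Of the other 16 integrin subunit genes, 12 were tested and 4 were too low. All 12 averaged under 5 CPM over the 5 libraries, and 0 were called by edgeR. At an unadjusted p under 0.05, 1 was lower and 0 higher (8.45% and 5.9% of all genes). Itga2b, the αIIb chain of platelets and megakaryocytes, held 112, 84 and 1 counts in WT replicates 1, 2 and 3 and 0 in both SRSF1KO libraries, which allows up to 0.0832 and 0.0839 CPM (3 counts each, counting error only). WT replicate 3, with its single count, was close to SRSF1KO, and the gene did not pass in edgeR (adjusted p = 0.221) but did in DESeq2 (adjusted p = 0.0036). Itgb4, the epithelial β4 chain, stood at 3.49, 3.32 and 2.80 CPM in WT and at 8.52 and 3.22 CPM in SRSF1KO (adjusted p = 0.485). The myeloid chains were scarce, with Itgam at 0.701 to 0.923 CPM in all libraries and Itgax, a dendritic cell marker, at most 2.64 CPM, both chosen after their values were seen.

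Inside the cell, talin, kindlin-3 and the GTPase Rap1 switch integrins to the binding state, and adaptors tie them to actin. Of 50 genes of integrin activation and adaptors 45 were tested, and 0 were called. At an unadjusted p under 0.05, 7 were lower and 4 higher (8.45% and 5.9% of all genes). DESeq2 called 4 lower and 1 higher (3.87% and 2.34% of the genes to which it gave an adjusted p). With limma-voom 1 was called in all (0.409% lower and 0.133% higher over all genes). The median log2 fold change was −0.05, near that of all genes. Rasgrp2, the exchange factor that loads Rap1 in lymphocytes and platelets, stood at 324.0, 306.1 and 280.1 CPM in WT and at 205.9 and 177.8 CPM in SRSF1KO. The groups did not overlap, and its log2 fold change of −0.66 ± 0.11 had an adjusted p of 0.0738. Cd226, a surface receptor that associates with LFA-1, stood at 75.4, 72.9 and 84.9 CPM in WT and at 33.1 and 44.5 CPM in SRSF1KO (−1.002 ± 0.17, adjusted p = 0.0746), again without overlap. Both genes passed with DESeq2 (adjusted p = 5.0e-05 and 2.4e-05). The core activators Tln1 (talin-1, 0.17, adjusted p = 0.420) and Fermt3 (kindlin-3, −0.01, adjusted p = 0.989) were chosen after their values were seen. Tln1 stood at 561.8, 556.3 and 598.9 CPM in WT and at 629.5 and 657.0 CPM in SRSF1KO, without overlap. Fermt3 stood at 439.5 to 568.9 CPM over the 5 libraries, and its groups overlapped.

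Of 26 genes of integrin ligands 16 were tested, 0 were called and the median was 0.20. At an unadjusted p under 0.05, 2 were lower and 3 higher (8.45% and 5.9% of all genes). DESeq2 called 0 lower and 1 higher (3.87% and 2.34% of the genes to which it gave an adjusted p). Jam2, a junction protein that binds VLA-4, was low everywhere, at 0.290, 0.220 and 0.260 CPM in WT and 1.11 and 3.72 CPM in SRSF1KO (adjusted p = 0.157). Lama5, a laminin chain, held 0 counts in the 3 WT libraries and 13 and 26 in the SRSF1KO libraries (adjusted p = 0.231), against up to 0.0824 CPM that a count of 0 allows in WT.

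TGF-β signalling and Runx factors are known regulators of Itgae in T cells. Of 17 genes of this group all were tested, 0 were called by edgeR, and 3 were lower and 1 higher at an unadjusted p under 0.05. DESeq2 called 1 lower and 1 higher, and the median log2 fold change was −0.20. For comparison, 8.45% of all genes tested were lower and 5.9% higher at that unadjusted p in edgeR. The DESeq2 shares were 3.87% lower and 2.34% higher, among genes that received an adjusted value. Runx3, the Runx factor of CD8 lineage cells, stood at 118.7, 102.4 and 110.9 CPM in WT and at 38.3 and 57.7 CPM in SRSF1KO. Both SRSF1KO libraries lay below WT, at −1.20 ± 0.19 (adjusted p = 0.0637 with edgeR, 4.8e-07 with DESeq2 and 0.0392 with limma-voom). Runx1 stood at 140.3, 154.2 and 126.0 CPM in WT and at 190.1 and 201.8 CPM in SRSF1KO, higher in both SRSF1KO libraries (0.48 ± 0.12, adjusted p = 0.136 with edgeR and 0.0065 with DESeq2). The receptor genes Tgfbr1 (0.13, adjusted p = 0.728) and Tgfbr2 (−0.28, adjusted p = 0.424), chosen after their values were seen, had overlapping groups. The part of these genes in the Itgae difference was not tested.

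**Figure D4:**
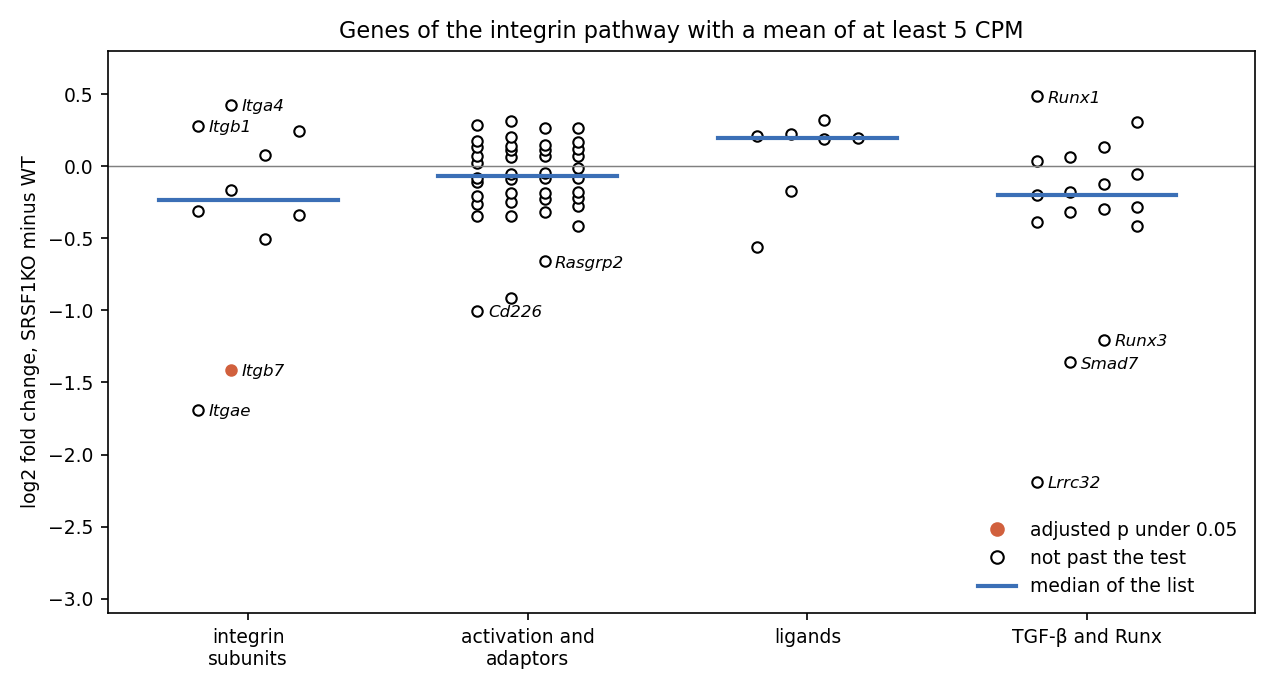
Log2 fold change, SRSF1KO minus WT (vertical axis), of the integrin subunit genes and of 3 related lists, for genes averaging 5 CPM or more, with a blue line at each median. Itgb7 is the filled point, past the adjusted threshold, and Rasgrp2, Cd226, Runx3 and Runx1 are named by rule, whereas Smad7 and Lrrc32 were labelled after their values were seen.

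Markers of more mature thymocytes were also lower in the SRSF1KO libraries in sum. The 6 markers of mature single-positive thymocytes summed to 3073 to 3267 CPM in WT and 1315 to 1905 CPM in SRSF1KO, none of them at 0, and H2-K1 made up most of that sum. Without H2-K1 the other 5 summed to 1157 to 1327 CPM in WT and 686 to 983 CPM in SRSF1KO. Ccr7, the chemokine receptor of medullary entry, stood at 534.7, 617.7 and 556.5 CPM in WT and at 220.2 and 350.2 CPM in SRSF1KO (−0.998, adjusted p = 0.0964). Il7r, the interleukin-7 receptor chain, was at 133.7, 162.1 and 135.1 CPM over WT and at 82.8 and 191.5 CPM over SRSF1KO libraries, which held both the lowest and the highest value. Both genes were chosen after their values were seen. Their part in the Itgb7 and Itgae differences was not tested. Markers of other cells that can carry αE or β7 were summed in the same way. The 7 dendritic cell markers summed to 38.9 to 64.3 CPM in WT and 35.7 to 52.4 CPM in SRSF1KO. H2-Aa made up most of that sum, at 27.9 to 52.4 CPM in WT and 41.0 and 19.1 CPM in SRSF1KO. Members differed in direction under the sum. Xcr1 was at 0.753 to 1.56 CPM in WT and lower in both SRSF1KO libraries, at 0 and 0.0279 CPM. Siglech was at 3.68 to 4.02 CPM in WT and higher in both, at 5.46 and 9.67 CPM. Clec9a too was higher in both SRSF1KO libraries, at 0.832 and 0.950 CPM, against 0 to 0.302 CPM in WT. The 6 B cell markers summed to 492 to 567 CPM in WT and to 761 and 558 CPM in SRSF1KO replicates 1 and 2. Of these sums Ighm, the immunoglobulin μ heavy chain, made up 462 to 517 CPM in WT and 713 and 514 CPM in SRSF1KO. The 6 NK and γδ T cell markers in the table summed to 37.9 to 50.7 CPM in WT and 46.7 to 63.4 CPM in SRSF1KO, and their members differed in direction. Trdc, the constant segment of the TCRδ chain, was at 27.5 to 32.1 CPM in WT and higher in both SRSF1KO libraries, at 56.9 and 43.9 CPM. Klrd1, the NK receptor chain CD94, was at 6.85 to 7.25 CPM in WT and lower in both, at 2.80 and 1.06 CPM. No marker of these 3 lists was at 0 in all libraries, and their part in the Itgb7 and Itgae differences was not tested. The single markers were picked after their values were seen.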

How the data were processed

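Integrin subunit genes, the related gene lists and the tests were chosen with earlier results of these data known. The authors deposited a table of raw read counts per gene for 53715 versioned Ensembl IDs, not normalised and not pooled. HTSeq 0.6.1, a read counter, DESeq2 1.20.0, cutadapt 1.17 and the build mm10 are listed, with no role, in the submitters' processing notes. What aligned the RNA-seq reads, the annotation release and the strand setting were not given in the sources used here. Overlapping genes may therefore share reads. Symbols came from a names table (53620 IDs matched), and coordinates and promoter windows from RefSeq on GRCm38.p6, the assembly of mm10.

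Counts were fitted over all genes with edgeR 4.0.16 in R 4.3.3 (TMM, filterByExpr, robust glmQLFit, glmQLFTest, group as the only term) and adjusted by Benjamini-Hochberg. All tests were two-sided, and scripts were tested on simulated counts. The standard error is the log2 fold change over the root of F. No set test was run. Within-library ratios were compared by an exact permutation test.

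Named genes were the 10 integrin genes, Srsf1, and from each of the 4 other lists up to 4 called genes, or where fewer than 2 were called the 2 of smallest p, and the 5 genes nearest to Itgb7. Alternatives were DESeq2's size factors, upper-quartile scaling, no expression filter, a mean of at least 5 CPM, DESeq2 1.42.0, limma-voom (limma 3.58.1), a replicate block, a term for the sex pattern and leaving out each library. Without 1 SRSF1KO library the other is assumed to vary like WT. Some marker sums hold genes whose own values are not reported here.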

Additional observations from a re-analysis of the deposited data

How the results depend on the processing

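No scaling, filter or test turned the direction of any of the 10 integrin genes, and leaving out a library turned only Itgav (−0.05 without WT replicate 2 and −0.30 without SRSF1KO replicate 2, in a range of −0.30 to 0.39). Over the integrin genes and alternatives, 117 results kept their direction and side of the threshold, 7 were lost (all Itgb7) and 4 were gained (all Itgae). Against 37 lower and 9 higher calls over all genes, DESeq2's size factors gave 7 and 3 (so a larger share of higher calls), no filter 346 and 198, a mean of at least 5 CPM 233 and 143, DESeq2 633 and 383, limma-voom 71 and 23, the sex pattern term 5 and 0 (2269 genes at an unadjusted p under 0.05), and leaving out a library 0 to 67 and 0 to 21 (0 in all without any 1 WT library, with 1903 to 2079 at an unadjusted p under 0.05). Integrin genes called lower numbered 0 with size factors or the sex term, 2 at a mean of at least 5 CPM, with DESeq2 and with limma-voom, and 0 to 2 with a library left out. Other integrin subunits called lower were 1 without a filter and with DESeq2. Activation genes called lower were 2 without a filter and at 5 CPM, 4 with DESeq2 and 1 with limma-voom, and 1 was called higher with DESeq2, as was 1 ligand. Of TGF-β and Runx genes, 1 was lower without a filter, at 5 CPM, with DESeq2 and with limma-voom, 0 to 1 with a library left out, and 1 was higher without a filter, at 5 CPM and with DESeq2. The log2 ratio difference lay between −1.95 and −1.50 for Itgb7 over Itgb1 and between −3.01 and −1.37 for Itgae over Itga4 with 1 library left out.

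With the replicate number as a block, 0 genes were lower and 0 higher, Itgb7 among those lost, with 1640 genes at an unadjusted p under 0.05. Deviations of same-numbered libraries correlated at −0.12 and −0.105, and the labels do not pair them. The deviations of the 2 SRSF1KO libraries from their mean mirror each other. These correlations therefore cannot tell whether same-numbered samples shared more than a number.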
